A study of Mus musculus with 3 samples.

Results

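Genes of the methionine cycle, folate metabolism, polyamine synthesis and adenosine metabolism were followed through 2 lists of H3K27me3 peaks from mouse kidney. The members were 36 protein-coding genes chosen by name, out of 21887 on the autosomes and sex chromosomes of the GRCm38.p6 gene table, and all 36 were found in it. A member counted as having a peak where a listed peak reached its annotated body, or 2 kb beyond either end, by at least 1 bp. The ChIP-seq libraries came from whole kidney of C57BL/6 mice. One H3K27me3 library was from ADA-treated mice, one from untreated mice, and the third sample was an untreated input without antibody. The series title also names pod-SAHH-/- mice, which were not analysed here, and dose, duration, age and the number of animals are not given in the sources used here. ADA is not spelled out in the labels. It is taken here as the inhibitor of the enzyme encoded by Ahcy that is known by this abbreviation, and it is not the gene Ada, which encodes adenosine deaminase and is one of the members.

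The methionine cycle makes S-adenosylmethionine (SAM), the methyl donor of nearly all cellular methyltransferases, including PRC2, the Polycomb complex that places H3K27me3 at repressed genes. Each methyl transfer leaves S-adenosylhomocysteine (SAH), which inhibits methyltransferases until Ahcy splits it into homocysteine and adenosine. Homocysteine is remethylated with folate or betaine or leaves through transsulfuration, and adenosine is phosphorylated, deaminated or signals through receptors. In kidney, the proximal tubule takes up and metabolises homocysteine, and adenosine regulates blood flow to the glomerulus.

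The ADA-treated library held 20602041 fragments and the untreated library 18849785, and the deposited lists had 17612 and 8074 peaks. Each group was 1 library, so no difference between the lists has a replicate check, and no test between them was possible. The deposited pileup of a peak is the number of fragments over a base, averaged along the peak. The deposited fold enrichment sets that pileup against a single genome-wide background of 3.24 fragments, which was the same in both lists. The smallest pileup listed was 10, a fold of 2.593 in the untreated and 2.595 in the ADA-treated list. A gene without a listed peak is therefore not shown to lack the mark. In whole kidney, a mark in fewer cells and less of it per cell cannot be told apart, and the tissue label could not be checked against marker genes in a list of peaks.

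Members had peaks about as often as other genes. In the ADA-treated list 20 of 36 members (55.6%) had a peak, beside 51.1% of all protein-coding genes. In the untreated list 11 of 36 (30.6%) had one, beside 27.9% of all genes. Both lists had a peak at 8 members (22.2%, all genes 25.5%), which were Ahcyl1, Gamt, Adk, Ampd3, Adora1, Adora2b, Amd1 and Srm. The ADA-treated list alone had one at 12 members (33.3%, all genes 25.7%), which were Ahcy, Ahcyl2, Mat2a, Mtrr, Cth, Gnmt, Pemt, Ampd2, Nt5e, Adora2a, Mthfd1l and Mthfd2. The untreated list alone had one at Mat2b, Cbs and Ada, which is 3 members (8.33%, all genes 2.4%). None of these 3 calls was kept at a deposited q of at most 5% or at a pileup of at least 12. Under those settings 2.53% and 5.46% of all genes kept an untreated peak. The remaining 13 members had no peak in either list. Members were longer than other genes, with a median of 23.0 kb against 17.2 kb. Counting only peaks within 2 kb of a gene end, 20 and 10 members had a peak, beside 46.4% and 22.8% of all genes.

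The members' peaks were of ordinary strength for these lists. The strongest peak of a marked member had a median fold of 3.29 in the ADA-treated list (range 2.74 to 5.03) and 2.94 in the untreated list (2.599 to 3.51). Over all marked genes the medians were 3.30 and 2.82. The highest fold, 5.03, was at Srm in the ADA-treated list, where 98.4% of the peaks had a lower one. In the untreated list Amd1 was highest at 3.51, above 98.3% of that list.

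**Figure D1:**
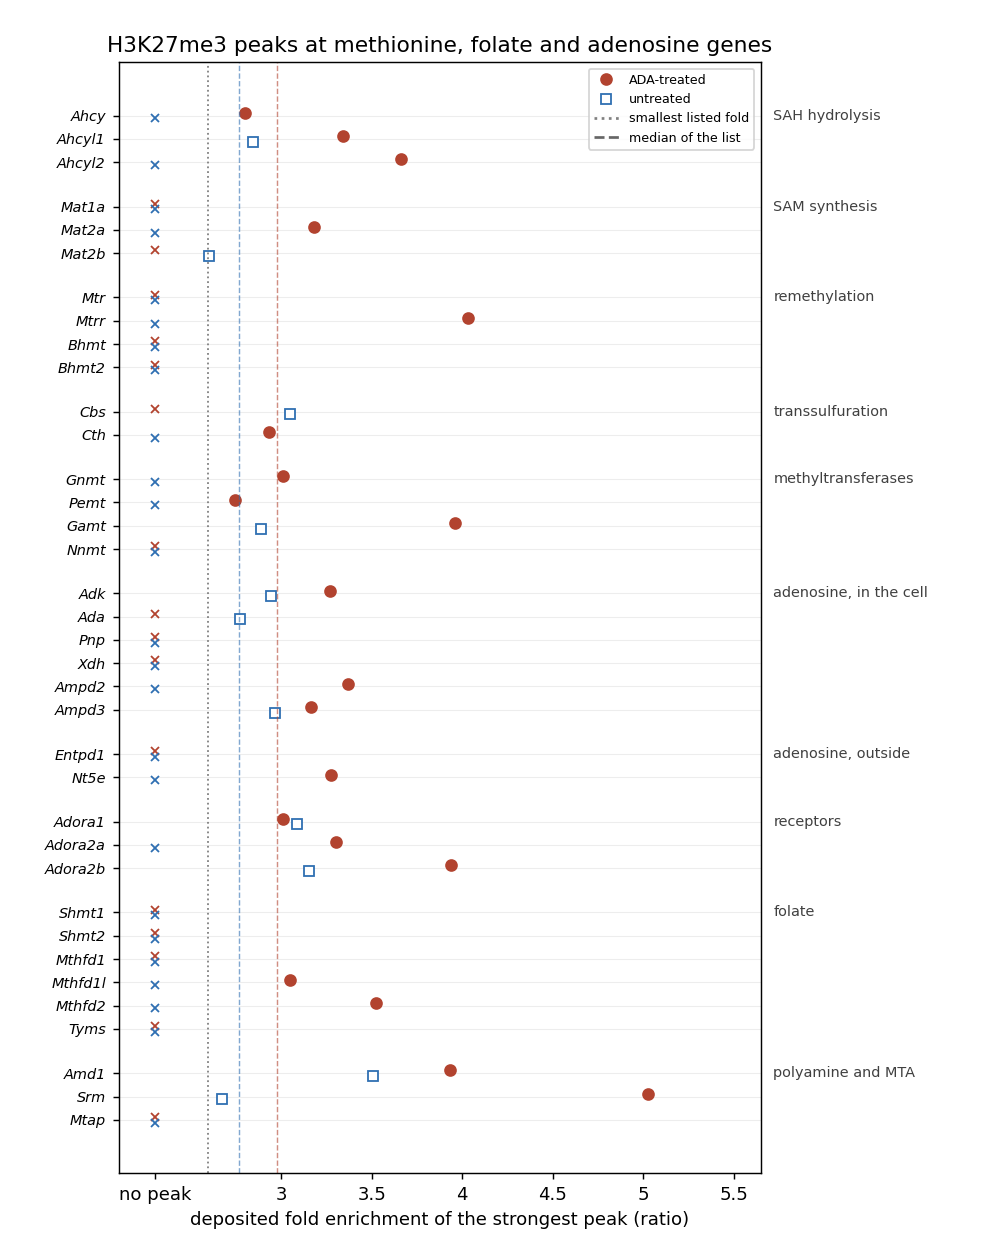
Deposited fold enrichment (ratio, horizontal axis) of the strongest peak at each of the 36 members, grouped by role, with filled circles for the ADA-treated and open squares for the untreated list, and crosses for no listed peak. The dotted line marks the smallest listed fold and the dashed lines the list medians, 2.97 (ADA-treated) and 2.76 (untreated); Srm, at 5.03, lies farthest to the right.

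Counts were also taken for each step of the pathway, beside 51.1% (ADA-treated) and 27.9% (untreated) of all genes. Of 16 methionine cycle genes 9 had one in the ADA-treated and 4 in the untreated list. For the 11 adenosine genes the counts were 7 and 5, for the 6 folate genes 2 and 0, and for the 3 polyamine and MTA genes 2 and 2. With so few genes and 1 library per group, these counts describe the lists, and no difference between steps was tested. Of 21 further folate genes that are not members, 15 had an ADA-treated peak (71.4%) and 4 an untreated one (19.0%).

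**Figure D2:**
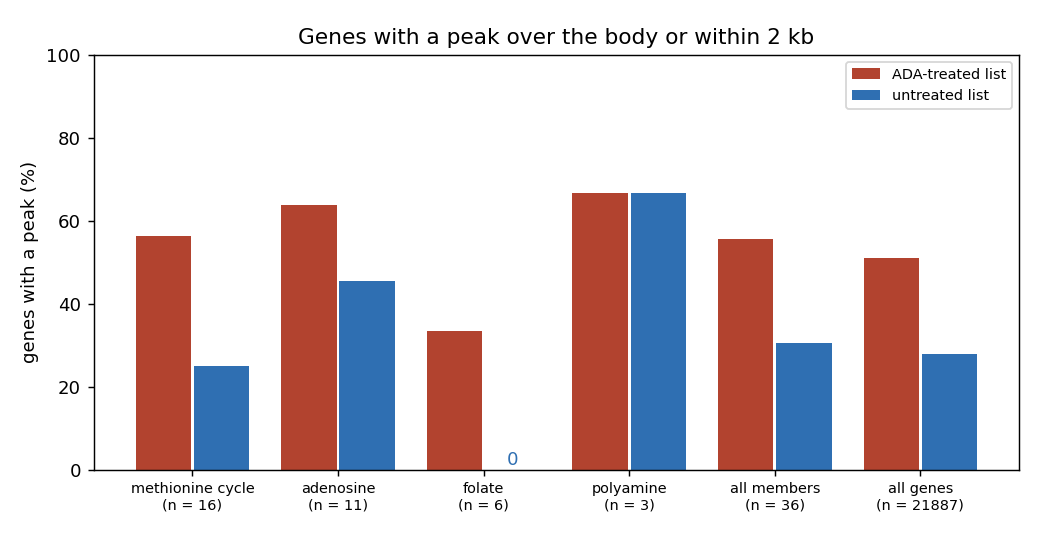
Share of genes (%) with a peak over the gene body or within 2 kb, for the 4 steps, all 36 members and all 21887 protein-coding genes, in the ADA-treated and untreated lists. The 6 folate members stand lowest, at 33.3% and 0, and the members together stand near all genes, at 55.6% against 51.1% and 30.6% against 27.9%.

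Peaks were next placed against the start sites of the members. Start sites came from RefSeq promoter windows on GRCm38.p6, which reach from 250 bases before to 50 bases after a start site and were matched for 30 of the 36 members. Mat1a, Cth, Nnmt, Xdh, Adora2a and Srm were not matched. In the ADA-treated list a peak reached a window of 13 of these 30 members (43.3%), beside 39.2% of 17492 genes with a window. In the untreated list it was 5 of 30 (16.7%, all genes 15.2%), namely Ahcyl1, Mat2b, Adk, Adora1 and Adora2b. Of 23 ADA-treated peaks at members with a window, 14 lay across a start site (60.9%), and of 13 untreated peaks 5 did (38.5%). Over all genes with a window, counting each peak once per gene it reached, the shares were 46.9% and 37.0%. These shares were not tested.

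Sequences of 6 promoter windows are shown because whether a peak lay there went with how many CG dinucleotides the window held. Only for Adora2b (chr11:62248734-62249033, plus strand) and for the first start site of Adk (chr14:21052324-21052623, plus) did peaks of both lists cover a whole window. At the second start site of Ahcyl1 (chr3:107696172-107696471, minus) the ADA-treated peak covered 300 bases and the untreated one 282. At the second start site of Mtrr (chr13:68582055-68582354, minus) the ADA-treated peak alone covered the window. Ahcy (chr2:155074448-155074747, minus) and Bhmt (chr13:93637709-93638008, minus) had no peak over their windows in either list. The Ahcyl1, Mtrr and Bhmt windows were chosen after their values were seen. All are RefSeq sequences of build GRCm38.p6, 5′ to 3′ on the gene's strand, and capitals mark each CG, which reads the same on both strands.
Adora2b: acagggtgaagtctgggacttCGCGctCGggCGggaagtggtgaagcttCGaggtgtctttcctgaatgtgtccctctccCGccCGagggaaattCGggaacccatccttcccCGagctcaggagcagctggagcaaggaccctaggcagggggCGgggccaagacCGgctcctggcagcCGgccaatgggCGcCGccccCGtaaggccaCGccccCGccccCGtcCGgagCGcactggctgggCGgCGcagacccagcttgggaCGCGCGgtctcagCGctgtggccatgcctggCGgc
Adk: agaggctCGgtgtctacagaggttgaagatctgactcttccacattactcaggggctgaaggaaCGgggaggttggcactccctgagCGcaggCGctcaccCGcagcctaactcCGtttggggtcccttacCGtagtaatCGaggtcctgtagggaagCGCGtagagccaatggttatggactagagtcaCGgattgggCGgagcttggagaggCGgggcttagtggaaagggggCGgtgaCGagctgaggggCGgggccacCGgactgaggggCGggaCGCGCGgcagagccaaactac
Ahcyl1: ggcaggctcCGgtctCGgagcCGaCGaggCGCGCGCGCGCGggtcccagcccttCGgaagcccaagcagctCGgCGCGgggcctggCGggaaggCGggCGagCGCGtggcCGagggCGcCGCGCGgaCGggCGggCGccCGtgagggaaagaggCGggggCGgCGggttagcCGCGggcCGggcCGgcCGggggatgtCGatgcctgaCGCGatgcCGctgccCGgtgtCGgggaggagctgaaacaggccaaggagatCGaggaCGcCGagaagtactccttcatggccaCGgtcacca
Mtrr: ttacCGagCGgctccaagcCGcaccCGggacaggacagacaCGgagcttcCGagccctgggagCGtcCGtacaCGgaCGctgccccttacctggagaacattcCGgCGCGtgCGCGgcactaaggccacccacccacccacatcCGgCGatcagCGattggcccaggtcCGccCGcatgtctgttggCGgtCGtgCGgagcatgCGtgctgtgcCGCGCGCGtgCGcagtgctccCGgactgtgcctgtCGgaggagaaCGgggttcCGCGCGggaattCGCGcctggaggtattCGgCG
Ahcy: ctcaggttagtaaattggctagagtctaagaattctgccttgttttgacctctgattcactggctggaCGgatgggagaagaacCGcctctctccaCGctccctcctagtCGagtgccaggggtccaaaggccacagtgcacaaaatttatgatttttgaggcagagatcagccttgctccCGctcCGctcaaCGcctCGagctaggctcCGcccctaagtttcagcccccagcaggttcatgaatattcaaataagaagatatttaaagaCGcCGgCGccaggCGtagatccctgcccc
Bhmt: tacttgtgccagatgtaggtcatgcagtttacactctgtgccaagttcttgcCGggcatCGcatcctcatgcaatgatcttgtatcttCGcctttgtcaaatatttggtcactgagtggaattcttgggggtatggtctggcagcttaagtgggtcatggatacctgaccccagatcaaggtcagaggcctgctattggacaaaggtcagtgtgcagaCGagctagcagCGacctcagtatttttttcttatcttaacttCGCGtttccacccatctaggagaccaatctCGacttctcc

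These windows held 27 (Adora2b), 21 (Adk), 46 (Ahcyl1), 39 (Mtrr), 13 (Ahcy) and 8 (Bhmt) CG dinucleotides. Of 21263 windows of protein-coding genes 95.4% held at least 1, with a median of 13, and 97.9% held fewer than the Ahcyl1 window. The count is a description of the letters and not a measure of methylation. Each gene was taken by its window with most CG, and counted as reached where a peak lay on any of its windows. Members reached by an ADA-treated peak had a median of 26 (range 12 to 46), and the other members 14 (3 to 26). The same medians over all genes were 26 and 6. Genes were also split by this count into 3 parts of similar size. In the part richest in CG (23 or more in the window) an ADA-treated peak reached 9 of 12 members (75%) and 80.8% of the 5541 genes. In the middle part (7 to 22) it reached 4 of 17 members (23.5%) and 36.6% of the 6064 genes. An untreated peak reached 4 of 12 and 1 of 17 members, beside 35.5% and 10.5% of the genes. Adk is among those 4 by its second window, with 33 CG. The untreated Adk peak did not reach that window and lay on the first, with 21. Bhmt2, Mtr and Entpd1 were the CG-rich members without a peak in either list, with 26, 24 and 23. Since the input did not enter as a local background, the part of base composition in where peaks were called was not tested.

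**Figure D3:**
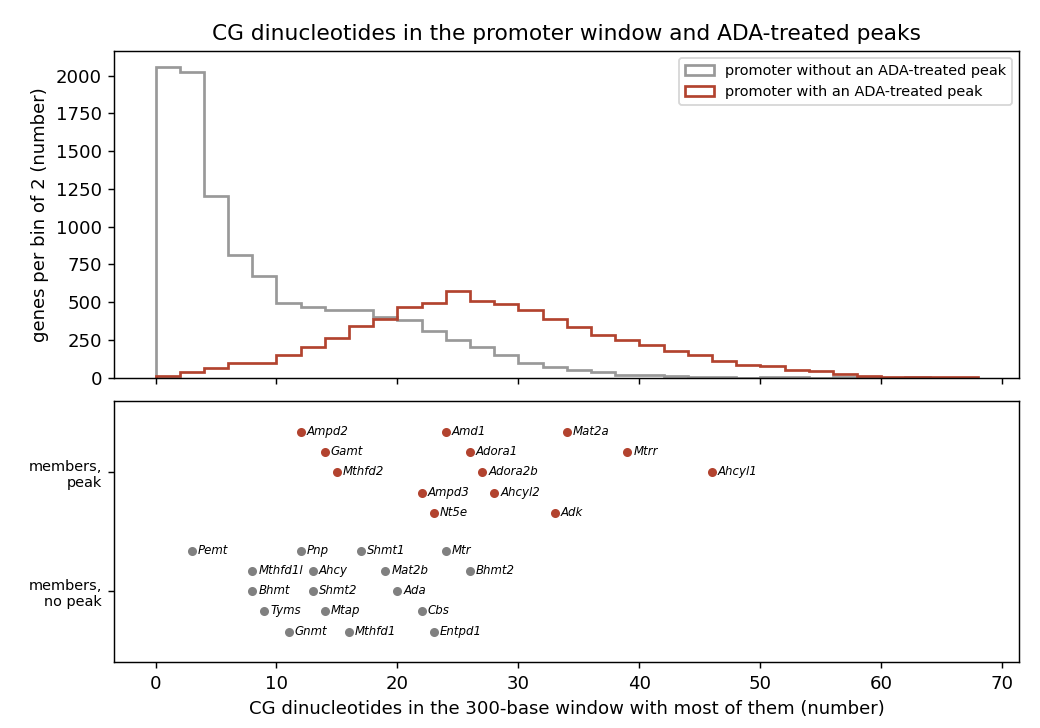
Number of CG dinucleotides in the 300-base promoter window with most of them (horizontal axis). The upper panel counts protein-coding genes with (red) and without (grey) an ADA-treated peak on any promoter window, and the lower panel places each of the 30 matched members; members with a peak range from 12 to 46 and the others from 3 to 26.

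Of Ahcy and the related genes Ahcyl1 and Ahcyl2, 3 of 3 had an ADA-treated peak, as did 51.1% of all genes. Ahcy itself, the enzyme that removes SAH, had a short one of 358 bp (chromosome 2, 155073970 to 155074327) with a pileup of 10.9 and a fold of 2.80. It began 170 bp downstream of the start site, and 33.0% of the ADA-treated peaks had a lower fold. No untreated peak was listed within 160985 bp of Ahcy. The Ahcy call was lost under each stricter selection of peaks: a deposited q of at most 5%, a pileup of at least 12, a −log10 p of at least 10, and the strongest 8074 peaks of the ADA-treated list.

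The Ahcy-like genes carried stronger peaks. Ahcyl1, which encodes an IP3 receptor-binding protein related to Ahcy, had a peak near its upstream start sites in both lists, with pileups of 13.2 (ADA-treated) and 11.1 (untreated). The ADA-treated peak (chromosome 3, 107696112 to 107696814) spanned the upstream start site, while the untreated one (107695108 to 107696453) lay farther into the gene, and they overlapped by 342 bp. Ahcyl2, its close relative, had only an ADA-treated peak, of 1089 bp across the start site (chromosome 6, 29768021 to 29769109), with a pileup of 14.5 and a fold of 3.66.

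SAM synthesis genes differed from each other. Mat1a, the SAM synthetase of adult liver, had no peak within 137588 bp in either list. Mat2a, the synthetase of most other tissues, had an ADA-treated peak of 1319 bp across its start site with a pileup of 12.5 (chromosome 6, 72438969 to 72440287), which also lay over the noncoding gene Particl. Mat2b, which encodes its regulatory subunit, had only an untreated peak (chromosome 11, 40692583 to 40693221). Its pileup of 10.02 was almost the smallest listed, and it covered the RefSeq start site that lies inside the annotated gene.

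Of 4 genes for homocysteine remethylation, 1 had an ADA-treated peak and 0 an untreated one, beside 51.1% and 27.9% of all genes. With only 4 genes these counts describe the lists, and no difference from those shares was tested. Mtrr, which reactivates methionine synthase, had an ADA-treated peak of 641 bp across its start (chromosome 13, 68581741 to 68582381) with a pileup of 16.1 and a fold of 4.03. That was higher than 90.4% of the list, and the peak is shared with the adjacent Fastkd3, a mitochondrial RNA-binding protein. The nearest untreated peak was 416916 bp from Mtrr. Mtr, methionine synthase itself, and the betaine-dependent Bhmt and Bhmt2, which lie next to each other on chromosome 13, had no peak in either list.

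In transsulfuration each gene was marked in 1 list. Cbs, the first enzyme of this exit, had an untreated peak of 1150 bp at the 3′ end of the gene (chromosome 17, 31612779 to 31613928) with a pileup of 11.9. It lay 23277 bp from the start site. Cth, the second enzyme, had ADA-treated peaks over one end (chromosome 3, 157925003 to 157925391, pileup 11.4) and inside the gene (157903226 to 157903777, pileup 10.2).

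Among the SAM-consuming methyltransferases, Gamt, which makes creatine, had the strongest peak. In the ADA-treated list a peak of 1963 bp with a pileup of 15.8 spanned its start and reached into the neighbour Dazap1 (chromosome 10, 80260026 to 80261988). The untreated peaks at Gamt had pileups of 11.2, beyond the 3′ end and over Ndufs7, and 10.2, inside the 3′ part of the gene. The only overlap between the lists there was 13 bp, with a second ADA-treated peak of pileup 11.01 at the 3′ end. Pemt, which makes phosphatidylcholine, had ADA-treated peaks just inside both ends of the gene, with pileups of 10.6 and 10.2. Gnmt, a buffer of the SAM to SAH ratio, was reached by an ADA-treated peak of pileup 11.7 that lay 1785 bp beyond its 3′ end, over Pex6. Nnmt, which methylates nicotinamide, had none.

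The enzymes that use adenosine inside the cell were marked in a mixed way. Adk, adenosine kinase, had overlapping peaks across its first start site in both lists, with pileups of 12.8 (ADA-treated; chromosome 14, 21051804 to 21053021) and 11.5 (untreated; 21051668 to 21052760), shared with the adjacent Ap3m1. A further ADA-treated peak of pileup 12.7 covered the second start site, which lies inside the gene. Ada had only an untreated peak, of pileup 10.8, inside the gene and 12450 bp from its start site (chromosome 2, 163736687 to 163737789). It is left out when only peaks near gene ends are counted. The AMP deaminase genes Ampd2 and Ampd3 had ADA-treated peaks across their start sites, with pileups of 13.3 and 12.4, and a second one each inside the gene. The Ampd2 start-site peak also lay over Gnat2, and the second Ampd3 peak also over Rnf141. At Ampd3 an untreated peak of 398 bp and pileup 11.6 overlapped the ADA-treated start-site peak by 393 bp. Pnp and Xdh, which lead from inosine to uric acid, had no peak.

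The adenosine receptor genes had an ADA-treated peak at 3 of 3, beside the same 51.1% of all genes. Adora2b, a Gs-coupled receptor, had peaks across the same start site in both lists, with pileups of 15.7 (chromosome 11, 62248485 to 62249600) and 12.4 (62248211 to 62249924). The untreated peak contained the ADA-treated one. At Adora1, the Gi-coupled receptor of the afferent arteriole, the longest member peak of the ADA-treated list (2397 bp, pileup 11.7; chromosome 1, 134233213 to 134235609) contained an untreated peak of 1734 bp and pileup 10.3. The strongest untreated Adora1 peak, of 334 bp and pileup 12.1, lay elsewhere in the gene. Adora2a had only an ADA-treated peak, of pileup 13.0, over one end of the gene. Of the enzymes that form adenosine outside the cell, Nt5e (CD73) had an ADA-treated peak of 511 bp and pileup 12.9 across its start site, and Entpd1 (CD39) had no peak within 89500 bp.

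Folate genes had no untreated peak at any of 6 members, beside 27.9% of all genes and 4 of 21 further folate genes. Mthfd2 and Mthfd1l, enzymes of the mitochondrial folate pathway, had ADA-treated peaks near a start site, with pileups of 13.9 and 11.9. The Mthfd2 peak lay across the start site (chromosome 6, 83317286 to 83317692), and a weaker one of pileup 11.5 over the annotated gene end was shared with Mob1a. Shmt1, Shmt2, Mthfd1 and Tyms, which supply one-carbon units and thymidylate, had none. These folate counts depend on the 2 kb reach. With 5 kb on both sides, Shmt2 had a peak in both lists and Mthfd1 an ADA-treated one. At that reach 53.6% of all genes had an ADA-treated and 30.4% an untreated peak. For members without a peak in a list, the nearest outside the 2 kb reach were 3038 bp from Pemt in the untreated list and 3575 bp from Shmt2 in the ADA-treated list. Just inside it lay those at Gnmt (1785 bp, ADA-treated) and Gamt (1893 bp, untreated).

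The highest value among members was at Srm in the ADA-treated list and at Amd1 in the untreated list, both polyamine genes. Srm, spermidine synthase, had overlapping peaks at one end of the gene with pileups of 20.3 in the ADA-treated list (chromosome 4, 148591087 to 148591870) and 10.3 in the untreated list (148590784 to 148591667). This was the only member peak with a deposited −log10 p of at least 10. Amd1, which makes the aminopropyl donor from SAM, had an ADA-treated peak of 1773 bp and pileup 15.7 across its start site (chromosome 10, 40300969 to 40302741). The untreated Amd1 peak, of 361 bp and pileup 13.9, lay within it (40301353 to 40301713) and was the only untreated member peak with a deposited q of at most 5%. Amd1 has the near-identical copy Amd2 and several pseudogenes in the gene table, and the sources used here do not give how reads were shared between them. Mtap, which salvages methylthioadenosine, the by-product of polyamine synthesis, had none.

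**Figure D4:**
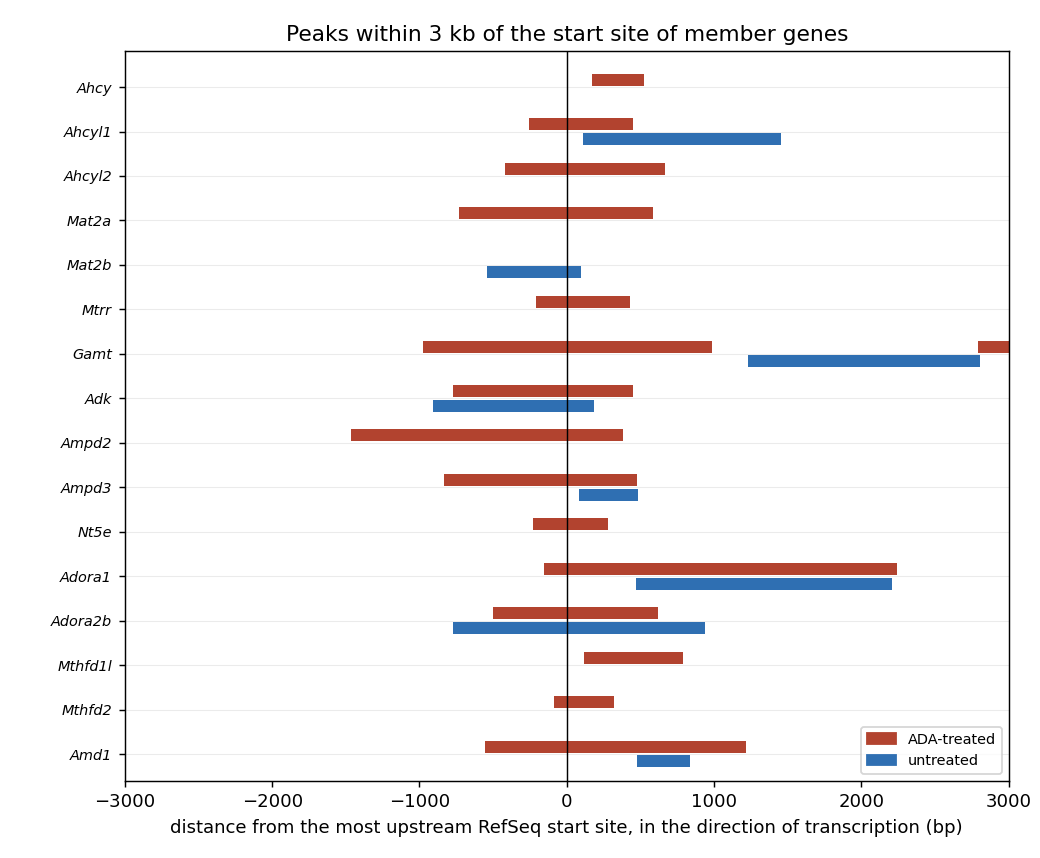
Peaks of the ADA-treated (red, upper) and untreated (blue, lower) lists within 3 kb of the most upstream RefSeq start site of member genes, as distance in bp in the direction of transcription (horizontal axis; bars are peak extents). Most red bars cross the start site, while of the blue bars those of Mat2b, Adk and Adora2b do.

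Where peaks of both lists overlapped at a member, the pileup was higher in the ADA-treated list in 8 of 8 pairs, beside 86.3% of 4744 pairs over the genome. The ratio of ADA-treated to untreated pileup ranged from 1.07 (Ampd3) to 1.96 (Srm) with a median of 1.13, and the median over all pairs was 1.21. Pileup is averaged over peaks of unequal length, such as 1773 and 361 bp at Amd1, and the ratios have no replicate error. The Gamt pair rests on an overlap of 13 bp. At Adora1 the strongest peak of each list did not overlap that of the other, and the untreated one was higher (12.1 against 11.7).

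Further genes of the same pathways, 93 in all and none of them members, had ADA-treated peaks at 62 (66.7%, all genes 51.1%) and untreated peaks at 26 (28.0%, all genes 27.9%). These genes were chosen with earlier results of these data known, and their difference from all genes was not tested. Mpst and Tst were both counted through the same ADA-treated peak. Genes of polyamine and methylthioadenosine metabolism had 14 and 7 of 16, of folate 15 and 4 of 21, of adenosine and purines 20 and 9 of 30, and of methionine, sulfur and methyl transfer 13 and 6 of 26. By fold, the leading genes with a peak in both lists were Tpmt, a thiopurine methyltransferase (4.54 ADA-treated, 2.76 untreated), Csad of taurine synthesis (4.502 and 2.69), Entpd5, a nucleotidase (4.004 and 2.593), and Azin2, an antizyme inhibitor (3.82 and 2.72). The leading genes of the ADA-treated list alone were Enoph1 of methionine salvage (4.94), the protein repair methyltransferase Pcmt1 (4.87), Gcsh of the glycine cleavage system (4.49) and the nucleotidase Nt5c2 (4.44). Sardh, sarcosine dehydrogenase, was the 1 gene of the untreated list alone, at 2.593.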

How the data were processed

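H3K27me3 ChIP-seq of mouse kidney was read from 2 deposited peak lists, 1 per group, with groups taken from the title, treatment and antibody labels. Per the file headers, the authors ran MACS 2.1.2 for broad peaks at p 0.001, on each library against an input of its own, with duplicate fragments of the alignment files kept and no local background. The submitters' processing notes name CASAVA 1.4 and mm9, and the sources used here do not name an aligner. Listed positions were read here as GRCm38. On that build 45.0% (ADA-treated) and 43.8% (untreated) of peak midpoints lay within 1 kb of a gene end. Once the genes were moved by 10 kb, 7.76 to 8.59% did. Gene positions of mm9 were not tried, so whether an earlier step used mm9 was not tested. Deposited values are the pileup (a signal), the fold ratio, and −log10 p and q of the caller. The headers state that q was not calculated, though the column holds values; q is used as deposited.

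Peaks were intersected with gene positions in Python 3.11.15 (numpy 2.4.6, pandas 2.3.3; figures with matplotlib 3.10.9), and the window calls were tested on simulated peaks. All members are reported; of other pathway genes, up to 4 per class with the largest fold are named. Members and lists were chosen with earlier results of these data known. Strand and start sites come from RefSeq promoter windows; exons and introns are not distinguished. With 1 library per group no test was run. Depth was 20602041 and 18849785 fragments, and both lists stop at a pileup of 10. Alternatives were other gene windows, stricter peak thresholds, lists of equal length and stricter overlap.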

Additional observations from a re-analysis of the deposited data

How the results depend on the processing

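The counts of 20, 11 and 8 members with a peak in the ADA-treated list, the untreated list and both were compared under 8 alternatives. Those that changed the gene window or the share of the peak inside it kept all 3 counts within 1.5 times, at 19 to 22, 10 to 14 and 8 to 11. The shares of all genes under these settings were 46.4 to 53.6%, 22.8 to 30.4% and 20.6 to 28.0%. Lists of equal length gave 15, 11 and 7, beside 35.3%, 27.9% and 20.2% of all genes. Stricter thresholds reduced the untreated list most. With a −log10 p of 10 or more required, the counts were 1, 0 and 0, beside 2.27%, 0.0366% and 0.0366% of all genes. At a q of at most 5%, which is computed within each list, the untreated count and the count in both were 1 and 1, with 18 in the ADA-treated list. At a pileup of at least 12 they were 3 and 2, with 14 in the ADA-treated list. Over all genes, the ADA-treated share was 42.0% at the q threshold and 33.9% at the pileup threshold, and the untreated share 2.53% and 5.46%. The share in both lists was 2.38% and 4.59%. Of the 8 members whose peaks overlapped between the lists, 6 did so by at least 50% of the shorter peak and 4 by at least 50% of both. The same overlap was not counted over all genes, so these counts describe the members only. No paired analysis was possible because each group has 1 library and the result comes from no test. A pileup of 10 limits detection in both lists, so a missing peak is not a missing mark.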
